A study of Mus musculus with 6 samples.

Results

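The genes described here are 34 genes of glucose and lactate transport, glycolysis and the response to low oxygen, taken by symbol from a table of 24421 genes, and all 34 were found in it. RNA sequencing read their messenger RNA in mouse cells of pancreatic ductal adenocarcinoma, from the 3 lines 2838c3, 6419c5 and 6499c4. Cells were kept for 16 hours with DMSO alone (vehicle) or with 250 nM of G-1, a compound that activates the oestrogen receptor GPER, with 1 library per line and treatment and thus 3 libraries per treatment. The lines came from another laboratory, were used at passages 15 to 20 and grew in a serum-supplemented medium under 5% CO2. The labels state neither the genotype of the lines nor the oxygen level, and both treatments share these conditions. Values are FPKM, reads per kilobase of gene length on a library scale. Levels of different genes can be set side by side only as far as those lengths hold. Relative to the median gene, the lengths implied by the values were 0.333 (Slc16a3) to 1.38 (Egln3) times the GENCODE M21 exon lengths. P4ha1 was at 1.35 and P4ha2 at 0.516. Isozyme shares and the ranking of levels rest on these lengths. The design gives 2 kinds of comparison, G-1 against vehicle over the 3 lines, and each pair of lines over 2 libraries a line.

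Glycolysis splits glucose into pyruvate. Glucose enters through transporters such as GLUT1, is trapped by hexokinases, committed by phosphofructokinase and cleaved by aldolase, and the lower enzymes then harvest ATP. Lactate dehydrogenase turns pyruvate into lactate, which leaves through monocarboxylate transporters, and tumour cells often run this route with oxygen present. Many of these genes are also induced when oxygen falls. Prolyl hydroxylases (EGLN proteins) mark the HIF alpha subunits for destruction while oxygen is present, and at low oxygen HIF alpha pairs with ARNT and binds DNA at the core letters ACGTG or GCGTG. ARNT is also the partner of the aryl hydrocarbon receptor, whose sites hold the core GCGTG. HIF1A is governed mainly at the protein level, which RNA does not show.

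A library held between 5455990 reads in genes (G-1, 6419c5) and 8890821 (vehicle, 2838c3). All 8 epithelial and duct markers reached a mean of 1 FPKM, and their summed level was 3534 to 6102 FPKM under vehicle and 3536 to 5965 under G-1. Of these 8, 7 (87.5%) were called in each pair of lines by the test given below. Of all genes tested, 51.5% were called between 6419c5 and 2838c3, 55.6% between 6499c4 and 2838c3 and 45% between 6499c4 and 6419c5. Epcam was at 0.284 and 1.14 FPKM in 2838c3, 3.94 and 3.65 FPKM in 6419c5 and 4.66 and 5.81 FPKM in 6499c4. Each such pair of values gives vehicle, then G-1, here and below. Of the markers of other cell types, none of 6 fibroblast, 6 immune, 4 endothelial and 4 islet genes reached that mean, with Col1a2, Dcn, Lum, Adgre1 and all 4 islet genes at 0 in every library, and summed levels of at most 1.82 FPKM. Of 4 acinar genes Prss1, Cpa1 and Amy2a5 were at 0 in every library and Cela1 was at 3.91 and 7.31 FPKM in 2838c3, 0.633 and 0.166 FPKM in 6419c5 and 1.09 and 0.451 FPKM in 6499c4.

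Many glycolytic genes have near-identical processed copies in the mouse genome, so the sequence that members share with other genes was counted. In GENCODE M21 (GRCm38), 16 of the 34 members shared under 1% of the 50-base words of their longest coding transcript with transcripts of other genes, overlapping genes included, and 8 shared over 25%. These 8 were Gapdh (82.5%), Eno1 (72.2%), Pgk1 (68.0%), Bnip3 (62.4%), Pgam1 (41.5%), Pkm (34.4%), Ldhb (27.0%) and Gpi1 (25.3%). Eno1, which encodes alpha-enolase, an enzyme that glycolysing cells need, was listed at 0 in all 6 libraries, and its near-identical copy Eno1b held 8, 0, 0, 2, 0 and 1 reads. Ldhb, the gene of the heart-type lactate dehydrogenase subunit, was also listed at 0 in all 6 libraries. Ldhb shared 27.0% of its words, while Gapdh, which shared 82.5%, was at 699 to 945 FPKM and Pgk1, which shared 68.0%, at 98.6 to 156. How reads that fit several genes were counted is not known here. Whether that counting bears on these zeros or on the levels of all 8 genes was not tested. The bar plot of shared words shows them at the top and genes such as Hk2, Slc16a1, Egln1 and P4ha1, which shared none, at the bottom.

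**Figure D1:**
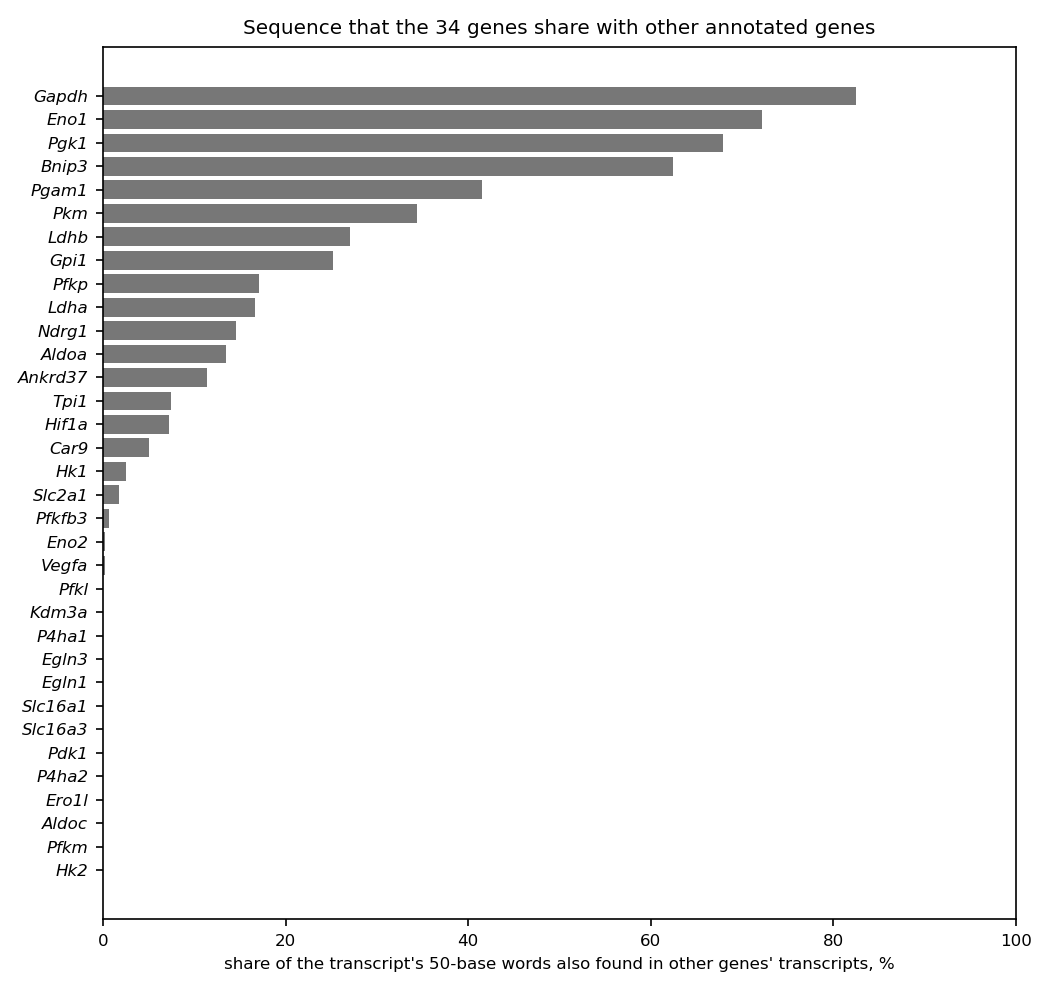
Horizontal bars give, for each of the 34 genes, the percentage of its transcript's 50-base words that also occur in transcripts of other annotated genes (GENCODE M21). Gapdh (82.5%) and Eno1 (72.2%) have the longest bars, and 16 genes lie under 1%.

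The promoters of the members were read for the HIF core because the list joins oxygen-responsive genes. RefSeq promoters (GRCm38.p6, 250 bases before to 50 after the start, the first listed per gene) matched 33 members by symbol or synonym, all except Ndrg1. ACGTG, on either strand, lay in 20 of 33 (60.6%), against 19.7% of 27025 genes and 27.1% of the 8237 matched genes that passed the level filter used below. GCGTG lay in 18 of 33 (54.5%), against 32.5% of all genes and 54.4% of those past the filter. Among the 11 matched oxygen-response members 9 held ACGTG, and among the 22 transport and glycolysis members 11 did. A CACGTG counts on both strands and is also the E-box letters of other factors. These are counts of letters, and no binding was measured. The promoters of 4 members are shown 5′ to 3′ with both cores in capitals, on the printed strand or, read as CACGT and CACGC, on the other. Hk2 (chr6:82774405-82774704, minus strand) and Ldha (chr7:46845554-46845853, plus strand) are shown for glycolysis, the first as a gene that differed between lines and the second as a gene that did not pass in any pair of lines. P4ha1 (chr10:59323046-59323345, plus strand) and P4ha2 (chr11:54100674-54100973, plus strand) are shown as genes of the same enzyme whose shares differed between lines.
Hk2: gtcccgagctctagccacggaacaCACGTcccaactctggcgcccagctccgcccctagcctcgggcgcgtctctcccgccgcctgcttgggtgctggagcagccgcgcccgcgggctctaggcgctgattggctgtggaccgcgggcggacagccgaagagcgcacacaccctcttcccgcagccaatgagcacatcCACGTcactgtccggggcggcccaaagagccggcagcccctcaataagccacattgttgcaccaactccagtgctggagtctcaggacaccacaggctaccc
Ldha: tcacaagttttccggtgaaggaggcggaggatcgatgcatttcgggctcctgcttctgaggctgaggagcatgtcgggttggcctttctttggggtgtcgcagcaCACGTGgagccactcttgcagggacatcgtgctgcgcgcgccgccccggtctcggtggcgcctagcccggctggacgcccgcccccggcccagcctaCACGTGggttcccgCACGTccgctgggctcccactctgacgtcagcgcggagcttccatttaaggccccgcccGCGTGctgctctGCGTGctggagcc
P4ha1: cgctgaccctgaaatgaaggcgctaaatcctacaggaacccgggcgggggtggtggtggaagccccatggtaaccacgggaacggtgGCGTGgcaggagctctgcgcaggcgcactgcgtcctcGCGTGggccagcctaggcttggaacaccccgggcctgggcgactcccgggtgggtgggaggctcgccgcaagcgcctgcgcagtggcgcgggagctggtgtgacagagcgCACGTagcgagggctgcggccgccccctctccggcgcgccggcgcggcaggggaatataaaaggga
P4ha2: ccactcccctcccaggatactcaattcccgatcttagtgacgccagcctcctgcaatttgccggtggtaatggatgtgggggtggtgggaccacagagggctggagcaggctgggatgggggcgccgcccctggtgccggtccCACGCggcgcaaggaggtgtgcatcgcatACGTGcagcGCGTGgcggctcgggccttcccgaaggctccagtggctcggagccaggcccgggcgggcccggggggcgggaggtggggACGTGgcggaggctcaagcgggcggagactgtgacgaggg
Hk2 holds ACGTG 2 times and GCGTG 0 times, Ldha 5 and 2 times, P4ha1 1 and 2, and P4ha2 2 and 2.

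Pkm, the pyruvate kinase gene, had the highest level of the 34, at 986 to 1705 FPKM, followed by Gapdh (699 to 945), Ldha (588 to 651), Aldoa (268 to 431) and Tpi1 (247 to 329). In all, 10 of 34 members stood above 50 FPKM in every library and 11 had a mean under 5. The 34 genes summed to 0.928 to 1.15% of all FPKM. The oxygen-response members did not share 1 level, with Ndrg1 at 47.9 to 64.3 FPKM and Vegfa at 14.5 to 31.8. Several other genes known for steep induction at low oxygen were near the bottom. Car9, the tumour carbonic anhydrase, was at 0.0597 and 0 FPKM in 2838c3, 0.357 and 0.844 FPKM in 6419c5 and 0.725 and 1.08 FPKM in 6499c4. Bnip3, a mitophagy receptor, was at 0.666 and 1.00 FPKM in 2838c3, 1.59 and 3.45 FPKM in 6419c5 and 2.43 and 2.56 FPKM in 6499c4, and Ankrd37 stayed between 1.38 and 2.59. Slc16a3, the gene of the lactate exporter MCT4, stayed between 1.09 and 2.36 FPKM, while Slc16a1, which encodes MCT1, was between 57.6 and 88.9. The brain-type isozymes were low as well, Aldoc at 0.572 to 2.22 FPKM and Eno2 at 0.0781 to 0.712. The tests took genes whose mean reached 1 FPKM, which left out Eno1, Ldhb, Eno2 and Car9 and kept 30 members.

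**Figure D2:**
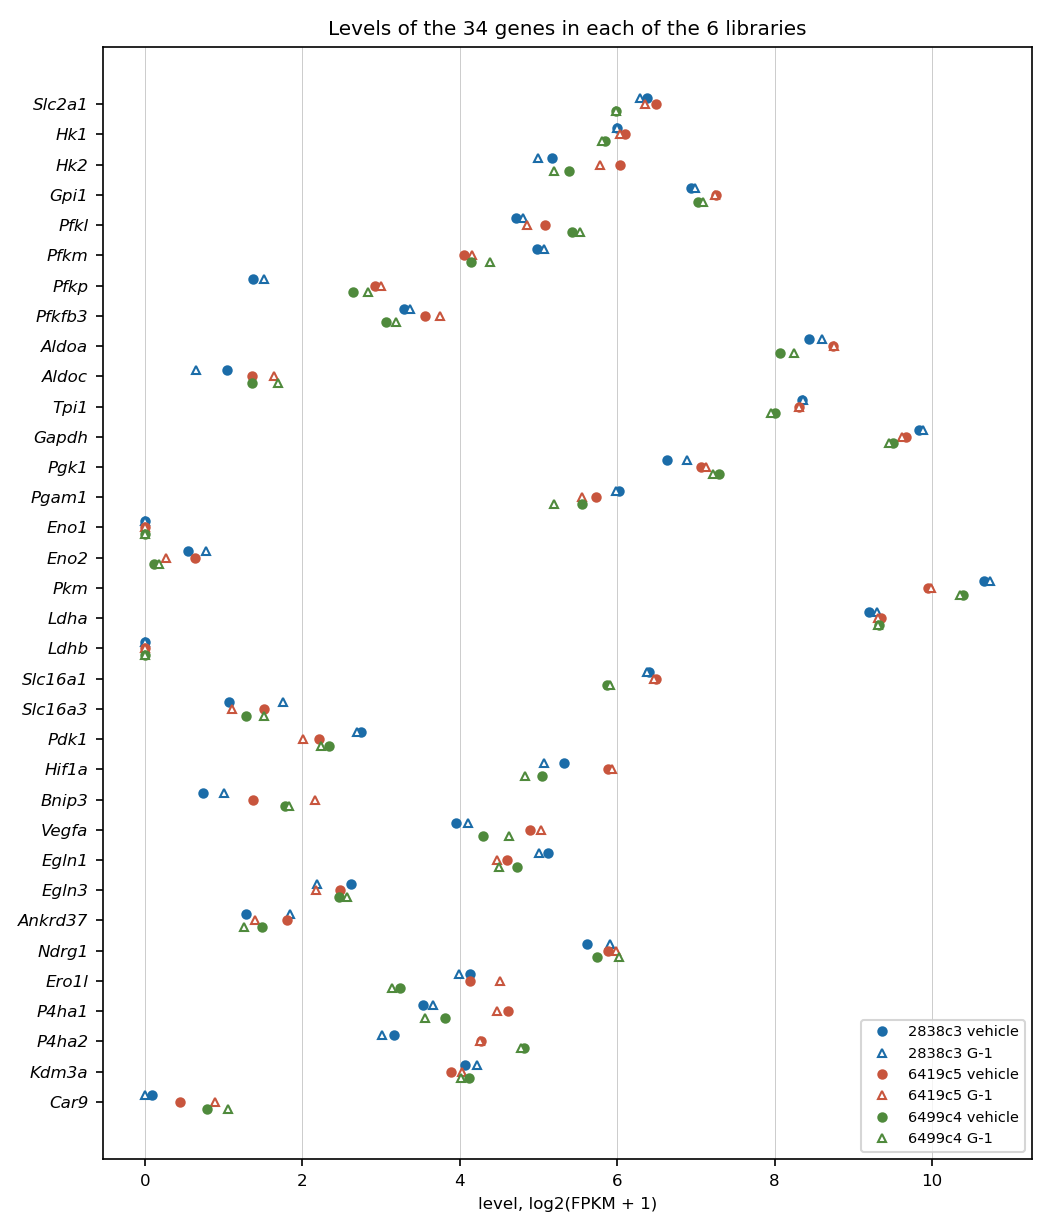
Each row is 1 of the 34 genes and each symbol 1 library, with the level as log2(FPKM + 1) on the horizontal axis, colour for the line, filled circles for vehicle and open triangles for G-1. Pkm lies farthest right (986 to 1705 FPKM), Eno1 and Ldhb lie at 0, and for most genes circles and triangles of a colour lie close together.

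G-1 changed none of the 30 tested members past the threshold. The test was limma on log2(FPKM + 1) with cell line as block, two-sided, with Benjamini-Hochberg adjustment over all 10748 genes tested and a threshold of 0.05. It called 0 of 30 members, where 0.0279% of all genes tested were called (0.0093% higher and 0.0186% lower), and the smallest adjusted p was 0.369. At an unadjusted p under 0.05 there were 4 members (Hk2, Pgam1, Vegfa and Ndrg1), or 13.3%, against 10.1% of all genes, and limma-voom on reads recovered from the FPKM steps called 0 members against 1.54% of all genes. Mean log2 differences ran from -0.21 to 0.37, with a median of 0.01 beside -0.01 over all genes. The 95% interval of the difference lay within 0.5 log2 units of 0 for 25 of the 30. In all 3 lines 7 members were higher under G-1 (23.3%, against 15.4% of all genes) and 6 were lower (20%, against 17.5%).

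The 6 members of 1 direction in every line, those whose smallest difference was largest, are given in full. Hk2, the gene of the inducible mitochondrial hexokinase, was lower under G-1 in each line, at 35.0 and 30.8 FPKM in 2838c3, 64.7 and 54.2 FPKM in 6419c5 and 40.8 and 35.7 FPKM in 6499c4. Its read ratios of G-1 to vehicle were 0.879 (0.819 to 0.944), 0.837 (0.786 to 0.891) and 0.876 (0.819 to 0.935) in the order of the lines, with exact 95% intervals that cover counting error only. The intervals lay below 1 in every line, and the mean over lines, -0.21 (SE 0.06, adjusted p = 0.37) on the log2 scale, did not pass in limma. The libraries of different lines overlapped, since the G-1 level of 6419c5 exceeded the vehicle levels of 2838c3 and 6499c4. Hk1, the housekeeping hexokinase, differed by -0.03 (SE 0.06, adjusted p = 0.893). The share of Hk2 in the summed FPKM of both hexokinases was 35.7 and 32.8% for 2838c3, 49.0 and 45.5% for 6419c5 and 42.0 and 39.3% for 6499c4, lower under G-1 in each line.

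Ndrg1, a stress and differentiation gene induced by hypoxia, was higher under G-1 in each line, at 47.9 and 59.2 FPKM in 2838c3, 58.2 and 62.2 FPKM in 6419c5 and 52.5 and 64.3 FPKM in 6499c4. Its read ratios were 1.24 (1.14 to 1.34), 1.07 (0.981 to 1.16) and 1.22 (1.14 to 1.32), so that the interval held 1 in 6419c5. Over lines it averaged 0.23 (SE 0.07, adjusted p = 0.369) on the log2 scale. Vegfa, which encodes the main angiogenic growth factor, was also higher in each line, at 14.5 and 16.3 FPKM in 2838c3, 28.8 and 31.8 FPKM in 6419c5 and 18.7 and 23.8 FPKM in 6499c4. The read ratios of Vegfa were 1.12 (0.994 to 1.26), 1.11 (1.00 to 1.22) and 1.27 (1.15 to 1.41), with a log2 average of 0.21 (SE 0.08, adjusted p = 0.441). The lowest G-1 level of Ndrg1 (59.2 FPKM, 2838c3) lay just above its highest vehicle level (58.2 FPKM, 6419c5), while the treatments overlapped over the lines for Vegfa. In GRCm38 (GENCODE M21), Hk2 lies on chromosome 6 (82725025 to 82774454, minus strand), Ndrg1 on chromosome 15 (66929318 to 66969640, minus strand) and Vegfa on chromosome 17 (46016993 to 46032369, minus strand).

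Egln1 encodes PHD2, the main oxygen sensor that marks HIF alpha subunits. It was lower under G-1 in each line, at 33.8 and 31.1 FPKM in 2838c3, 23.2 and 21.3 FPKM in 6419c5 and 25.4 and 21.7 FPKM in 6499c4, a log2 average of -0.15 (SE 0.07, adjusted p = 0.513). Pfkm, the muscle-type phosphofructokinase gene, was higher in each line at 30.5 and 32.7 FPKM in 2838c3, 15.6 and 16.8 FPKM in 6419c5 and 16.6 and 19.9 FPKM in 6499c4, a difference of 0.15 (SE 0.07, adjusted p = 0.544). Pfkfb3, whose product makes the activator of phosphofructokinase, was at 8.76 and 9.34 FPKM in 2838c3, 10.8 and 12.4 FPKM in 6419c5 and 7.32 and 8.14 FPKM in 6499c4, a difference of 0.14 (SE 0.09, adjusted p = 0.624). Both treatments overlapped over the lines for each of these 3 genes, and the 2838c3 libraries of Egln1 and Pfkm lay above all others. Egln1 lies on chromosome 8 (124908587 to 124949324, minus strand), Pfkm on chromosome 15 (98092589 to 98132451, plus strand) and Pfkfb3 on chromosome 2 (11471433 to 11554077, minus strand). None of the 6 genes passed in any alternative run.

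**Figure D3:**
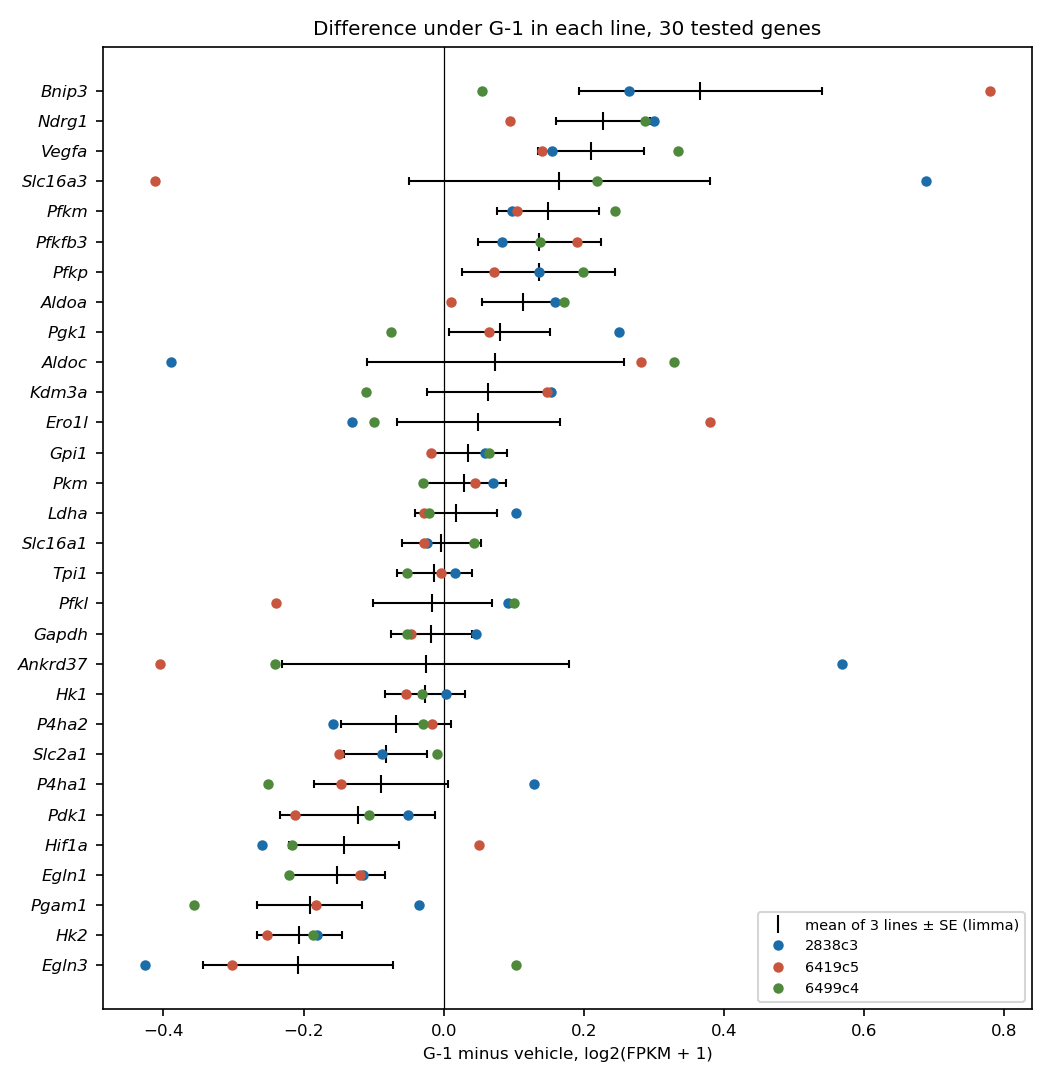
For each of the 30 tested genes, coloured points give the difference G-1 minus vehicle in log2(FPKM + 1) in each of the 3 lines, and the black mark with its bar gives the mean and its limma SE. Means run from -0.21 to 0.37, and 17 genes have points on both sides of 0 (13 have all points on 1 side).

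Hif1a itself was at 39.2 and 32.6 FPKM in 2838c3, 57.8 and 59.9 FPKM in 6419c5 and 32.0 and 27.3 FPKM in 6499c4. It was lower under G-1 in 2838c3 and 6499c4, with read ratios of 0.831 (0.772 to 0.895) and 0.856 (0.789 to 0.928), and its ratio in 6419c5 was 1.04 (0.969 to 1.11). Over lines it averaged -0.14 (SE 0.08, adjusted p = 0.572). Some members had intervals apart from 1 in 1 or 2 of the lines. Ero1l, which encodes an oxidase of the endoplasmic reticulum, had a ratio of 1.32 (1.17 to 1.49) in 6419c5 beside 0.908 (0.808 to 1.02) and 0.925 (0.787 to 1.09) in 2838c3 and 6499c4. Bnip3 had 10 and 15 reads in 2838c3, 20 and 33 reads in 6419c5 and 39 and 36 reads in 6499c4, a ratio of 2.17 (1.21 to 3.98) in 6419c5. Pgam1, the phosphoglycerate mutase gene, had ratios of 0.976 (0.893 to 1.07), 0.879 (0.779 to 0.990) and 0.776 (0.693 to 0.868). In 2838c3 the interval lay above 1 for 8 of 30 members (26.7%, against 12.6% of all genes tested) and below 1 for 3 (10%, against 18.2%). In 6419c5 it lay above 1 for 4 (13.3%, against 7.77%) and below for 5 (16.7%, against 8.76%), and in 6499c4 above for 4 (13.3%, against 17.9%) and below for 7 (23.3%, against 17.7%). Members had more reads than most genes, a median of 724 per library against 310.0, and so narrower intervals. Whether the response differed between lines was not tested, with 1 library each.

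Many members differed between lines, as did many of all genes tested. Between 6419c5 and 2838c3 the same fit, with treatment as covariate, called 18 of 30 members (60%, against 51.5% of all genes tested), 12 higher (40%, against 26.2%) and 6 lower (20%, against 25.3%) in 6419c5. Between 6499c4 and 2838c3 it called 20 (66.7%, against 55.6%), 8 higher (26.7%, against 26.6%) and 12 lower (40%, against 28.9%) in 6499c4. Between 6499c4 and 6419c5 it called 15 (50%, against 45%), 3 higher (10%, against 21.3%) and 12 lower (40%, against 23.7%) in 6499c4. These differences in share were not tested. The calls against 2838c3 include Aldoc and Bnip3, which had means under 1 FPKM in that line and passed the level filter through the others. Medians over the 30 members were 0.13, -0.12 and -0.18 in the same order, beside 0.00, -0.01 and 0.01 over all genes. Ldha, Slc16a3, Egln3, Ankrd37, Ndrg1 and Kdm3a were called in no pair of lines. By line mean, 6419c5 was the highest line for 16 members, 2838c3 for 9 and 6499c4 for 5. Neither was counted over all genes. The 2 libraries of a line stood apart from those of both other lines, for all 3 lines, in 16 of 30 members, against 47.2% of all genes. Each line has 2 libraries that differ in treatment, so the p-values rest on 2 residual degrees of freedom and variances pooled over genes. Without the G-1 library of 2838c3 or of 6419c5 the first comparison called 11 members, and without the G-1 library of 6419c5 the last called 9, with the lone library of a line assumed to vary like the others.

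**Figure D4:**
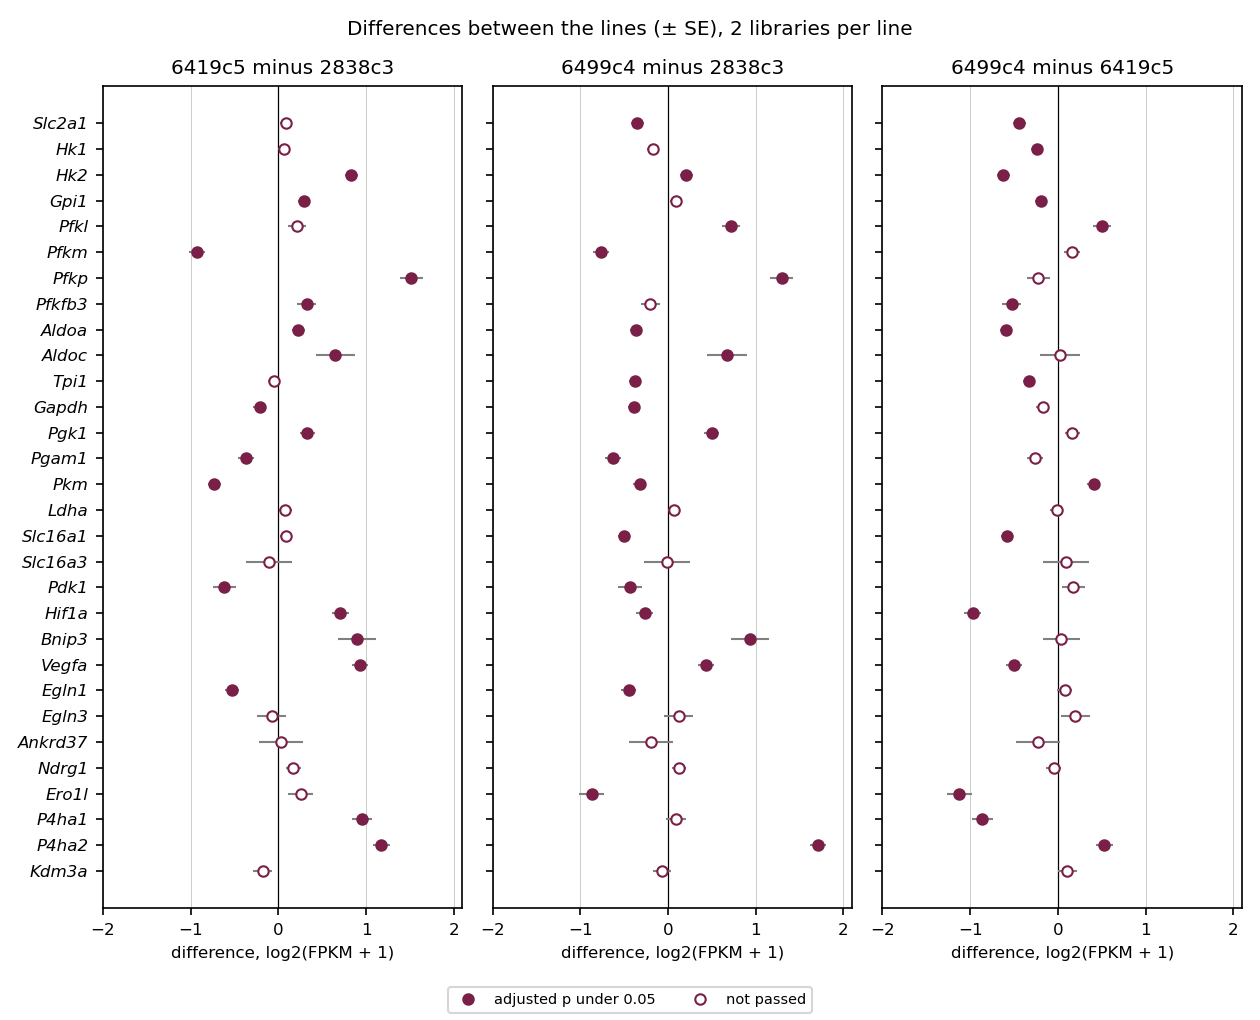
Each panel gives, for the 30 tested genes, the difference between a pair of lines in log2(FPKM + 1) with its SE, filled where the adjusted p was under 0.05. P4ha2 reaches 1.71 in 6499c4 minus 2838c3, Ero1l lies at -1.12 in 6499c4 minus 6419c5, and Ldha lies near 0 in all 3 panels.

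Of the 3 transporter genes, Slc2a1 and Slc16a1 were lowest in 6499c4. Slc2a1, which encodes the glucose transporter GLUT1, was at 82.3 and 77.3 FPKM in 2838c3, 89.4 and 80.5 FPKM in 6419c5 and 62.5 and 62.1 FPKM in 6499c4. Both 6499c4 libraries lay below the 4 others, with log2 differences of -0.35 (SE 0.07, adjusted p = 0.00482) against 2838c3 and -0.44 (SE 0.07, adjusted p = 0.00241) against 6419c5. Slc16a1 was at 83.8 and 82.3 FPKM in 2838c3, 88.9 and 87.2 FPKM in 6419c5 and 57.6 and 59.3 FPKM in 6499c4, and 6499c4 was again below both other lines, at -0.50 (SE 0.07, adjusted p = 7.37e-04) and -0.58 (SE 0.07, adjusted p = 5.11e-04). Between 6419c5 and 2838c3 neither transporter passed (0.09 and 0.08, adjusted p = 0.341 and 0.344). Slc16a3 held 8 to 26 reads per library and did not pass in any pair.

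In upper glycolysis the isozymes of 2 steps were spread differently over the lines. Hk2 was highest in 6419c5, 0.83 (SE 0.07, adjusted p = 1.35e-04) above 2838c3, and lower in 6499c4 than in 6419c5, at -0.62 (SE 0.07, adjusted p = 5.32e-04), with the levels given above. Its difference of 0.21 (SE 0.07, adjusted p = 0.0449) between 6499c4 and 2838c3 was not held when any 1 library was left out (adjusted p of 0.0611 to 0.221). Hk1 was at 63.0 and 63.1 FPKM in 2838c3, 67.3 and 64.8 FPKM in 6419c5 and 56.4 and 55.1 FPKM in 6499c4, a narrow range, with -0.24 (SE 0.07, adjusted p = 0.0263) between 6499c4 and 6419c5. That call of Hk1 ended without any 1 of the libraries of these lines (adjusted p of 0.0919 to 0.131). Gpi1, the phosphoglucose isomerase gene, was at 121 and 126 FPKM in 2838c3, 152 and 151 FPKM in 6419c5 and 129 and 135 FPKM in 6499c4 and highest in 6419c5, 0.29 (SE 0.07, adjusted p = 0.00923) above 2838c3, a call lost without the vehicle library of either line (adjusted p of 0.0695 to 0.0832). Between 6499c4 and 6419c5 Gpi1 differed by -0.20 (SE 0.07, adjusted p = 0.0476), which ended without any 1 library (0.0711 to 0.233).

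Phosphofructokinase, the committing step, is built from liver, muscle and platelet subunits. Pfkl, the liver type, was at 25.2 and 26.9 FPKM in 2838c3, 33.0 and 27.8 FPKM in 6419c5 and 42.0 and 45.0 FPKM in 6499c4 and highest in 6499c4. Pfkm, the muscle type, was highest in 2838c3, where both libraries lay above the 4 others (levels above). Pfkp, the platelet type, was at 1.59 and 1.85 FPKM in 2838c3, 6.59 and 6.98 FPKM in 6419c5 and 5.22 and 6.14 FPKM in 6499c4, low in 2838c3. The differences of 6499c4 from 2838c3 were 0.72 (SE 0.10, adjusted p = 9.36e-04) for Pfkl, -0.76 (SE 0.09, adjusted p = 3.37e-04) for Pfkm and 1.29 (SE 0.13, adjusted p = 1.87e-04) for Pfkp. Those of 6419c5 from 2838c3 were -0.92 (SE 0.09, adjusted p = 1.87e-04) for Pfkm and 1.52 (SE 0.13, adjusted p = 1.27e-04) for Pfkp, while Pfkl did not pass (0.21, adjusted p = 0.127). The share of Pfkm in the summed FPKM of the 3 genes was thus 53.2 and 53.2% for 2838c3, 28.2 and 32.6% for 6419c5 and 26.1 and 28.0% for 6499c4, and that of Pfkp was 2.78 and 3.01% for 2838c3, 11.9 and 13.5% for 6419c5 and 8.18 and 8.64% for 6499c4. Their sum lay between 51.6 and 71.1 FPKM over the 6 libraries. Pfkl also differed between 6499c4 and 6419c5, at 0.51 (SE 0.10, adjusted p = 0.00676), but not without the G-1 library of 6419c5 (adjusted p = 0.0648). Pfkfb3 was lower in 6499c4 than in 6419c5, at -0.53 (SE 0.11, adjusted p = 0.00634), again not without that library (0.0688), and its difference between 6419c5 and 2838c3, 0.32 (SE 0.11, adjusted p = 0.0385), ended without any 1 library of these lines (0.106 to 0.201).

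**Figure D5:**
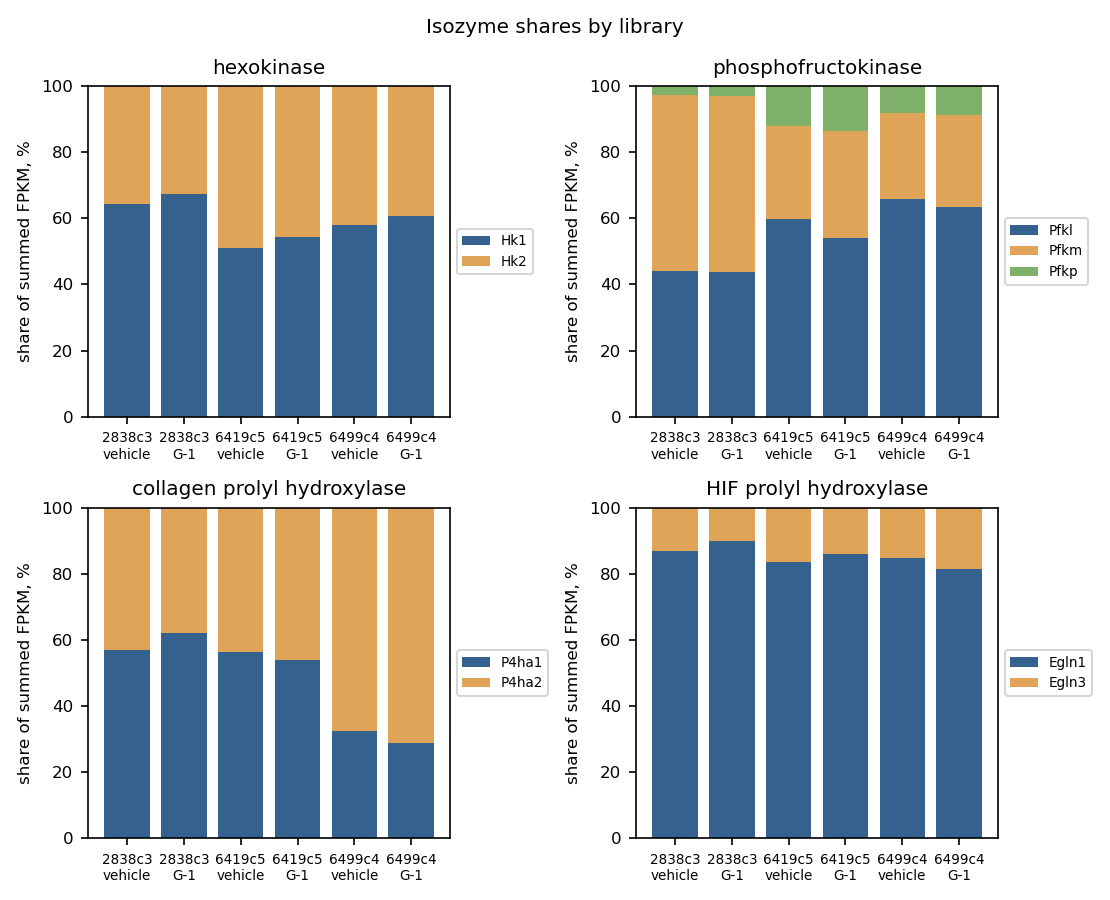
Stacked bars give the share of each member in the summed FPKM of the members of its enzyme, in percent, for the 6 libraries and 4 enzymes. Egln2, not a member, is left out of the HIF prolyl hydroxylase panel. Pfkm takes 53.2% in both 2838c3 libraries and at most 32.6% in the others, and P4ha2 takes 67.6 and 71.1% in 6499c4.

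The lower enzymes did not move as a block. Aldoa, the main aldolase gene, was at 347 and 388 FPKM in 2838c3, 428 and 431 FPKM in 6419c5 and 268 and 302 FPKM in 6499c4 and lowest in 6499c4, at -0.37 (SE 0.07, adjusted p = 0.00416) against 2838c3 and -0.59 (SE 0.07, adjusted p = 6.11e-04) against 6419c5. Tpi1, the triose phosphate isomerase gene, was at 325 and 329 FPKM in 2838c3, 316 and 315 FPKM in 6419c5 and 256 and 247 FPKM in 6499c4, and Gapdh, the dehydrogenase often used as a reference gene, at 916 and 945 FPKM in 2838c3, 816 and 789 FPKM in 6419c5 and 724 and 699 FPKM in 6499c4. Both were lower in 6499c4 than in 2838c3, at -0.38 (SE 0.07, adjusted p = 0.00223) and -0.39 (SE 0.07, adjusted p = 0.00285). Pgam1 was at 64.1 and 62.6 FPKM in 2838c3, 52.3 and 45.9 FPKM in 6419c5 and 46.1 and 35.8 FPKM in 6499c4 and had the same order, -0.63 (SE 0.09, adjusted p = 0.00101). Pgk1, the first ATP-yielding enzyme, ran the other way at 98.6 and 118 FPKM in 2838c3, 133 and 139 FPKM in 6419c5 and 156 and 148 FPKM in 6499c4, with 6499c4 above 2838c3 by 0.50 (SE 0.09, adjusted p = 0.00248). Pkm was highest in 2838c3 and lowest in 6419c5, at 1623 and 1705 FPKM in 2838c3, 986 and 1017 FPKM in 6419c5 and 1341 and 1314 FPKM in 6499c4, -0.73 (SE 0.07, adjusted p = 2.20e-04) for 6419c5 and -0.33 (SE 0.07, adjusted p = 0.00751) for 6499c4 against 2838c3. The splice forms of Pkm are not told apart in these values.

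Ldha, which makes lactate, was at 588 and 632 FPKM in 2838c3, 651 and 639 FPKM in 6419c5 and 644 and 635 FPKM in 6499c4 and did not pass in any pair, with differences of 0.08, 0.07 and -0.01 (SE 0.07 each). Pdk1, a kinase that keeps pyruvate out of the mitochondrial cycle, was at 5.72 and 5.49 FPKM in 2838c3, 3.64 and 3.01 FPKM in 6419c5 and 4.07 and 3.70 FPKM in 6499c4 and highest in 2838c3. Its differences were -0.61 (SE 0.14, adjusted p = 0.0075) for 6419c5 and -0.44 (SE 0.14, adjusted p = 0.0273) for 6499c4. The first ended without the G-1 library of 2838c3 or 6419c5 (adjusted p of 0.0658 to 0.0673) and the second without any 1 library of its lines (0.083 to 0.176). Aldoc was at 1.06 and 0.572 FPKM in 2838c3, 1.56 and 2.11 FPKM in 6419c5 and 1.56 and 2.22 FPKM in 6499c4, from 14 to 51 reads. Aldoc had a mean under 1 FPKM in 2838c3 and passed the level filter through the other lines. Its differences from 2838c3 are therefore given as levels alone. Between 6419c5 and 2838c3 the calls of Aldoa (0.23) and Gapdh (-0.21) ended without any 1 library of these lines, at adjusted p of 0.0566 to 0.264 and 0.0679 to 0.224. The call of Pgk1 (0.33) ended without the vehicle library of 2838c3 or either of 6419c5 (0.0947 to 0.166), and that of Pgam1 (-0.36) without the G-1 library of 2838c3 or either of 6419c5 (0.0838 to 0.139). Tpi1 (-0.33) and Pkm (0.41) were called between 6499c4 and 6419c5, but not without either library of 6419c5 (0.051 to 0.0626 and 0.0583 to 0.062).

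Hif1a encodes the oxygen-labile HIF subunit. Both 6419c5 libraries (57.8 and 59.9 FPKM) lay above the 4 others, by 0.70 (SE 0.10, adjusted p = 8.65e-04) against 2838c3, and 6499c4 was below 6419c5, at -0.97 (SE 0.10, adjusted p = 2.38e-04). Against 2838c3, 6499c4 differed by -0.26 (SE 0.10, adjusted p = 0.049), which ended without any 1 library of these lines (adjusted p of 0.0563 to 0.31) and with a pseudocount of 0.1 (0.0508). Egln1 was highest in 2838c3, with differences of -0.53 (SE 0.08, adjusted p = 0.00169) for 6419c5 and -0.45 (SE 0.08, adjusted p = 0.00291) for 6499c4 and the levels given above. Egln3, a hydroxylase gene that HIF itself induces, was at 3.50 to 5.11 FPKM and did not pass in any pair. It took 10.2 to 18.6% of the summed FPKM of Egln1 and Egln3. Egln2, another EGLN gene, is not a member and not in that sum. Its level was 18.0 and 23.1 FPKM in 2838c3, 23.6 and 30.3 FPKM in 6419c5 and 25.7 and 30.1 FPKM in 6499c4.

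P4ha2, a collagen prolyl hydroxylase gene, was at 7.98 and 7.05 FPKM in 2838c3, 18.3 and 18.1 FPKM in 6419c5 and 27.1 and 26.5 FPKM in 6499c4, lowest in 2838c3 and highest in 6499c4 with no overlap of the lines. It differed by 1.18 (SE 0.10, adjusted p = 9.14e-05), 1.71 (SE 0.10, adjusted p = 1.15e-05) and 0.53 (SE 0.10, adjusted p = 0.00358) in the order of pairs used above. P4ha1, at 10.5 and 11.6 FPKM in 2838c3, 23.5 and 21.2 FPKM in 6419c5 and 12.99 and 10.8 FPKM in 6499c4, was highest in 6419c5, by 0.95 (SE 0.12, adjusted p = 5.41e-04) against 2838c3, and lower in 6499c4 than in 6419c5, at -0.86 (SE 0.12, adjusted p = 0.00101). Both genes encode alternative catalytic subunits of the enzyme that hydroxylates collagen, and the share of P4ha2 in their sum was 43.1 and 37.8% for 2838c3, 43.8 and 46.1% for 6419c5 and 67.6 and 71.1% for 6499c4. The P4ha2 share was higher in both 6499c4 libraries than in the 4 others.

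Vegfa was lowest in 2838c3 and highest in 6419c5, with differences of 0.93 (SE 0.09, adjusted p = 2.05e-04), 0.43 (SE 0.09, adjusted p = 0.00582) and -0.50 (SE 0.09, adjusted p = 0.00411). Ero1l was at 16.5 and 14.9 FPKM in 2838c3, 16.4 and 21.7 FPKM in 6419c5 and 8.45 and 7.82 FPKM in 6499c4, with both 6499c4 libraries below the 4 others, at -0.87 (SE 0.14, adjusted p = 0.00162) and -1.12 (SE 0.14, adjusted p = 6.90e-04). Bnip3 was lowest in 2838c3. Bnip3 rests on 10 to 39 reads per library. Like Aldoc, it had a mean under 1 FPKM in 2838c3 and passed the level filter through the lines where it was higher. Its differences from 2838c3 are likewise given as levels alone. Car9, below the level filter, had 1 and 0 reads in 2838c3, 5 and 9 reads in 6419c5 and 13 and 17 reads in 6499c4. Kdm3a, a histone demethylase gene, stayed at 13.8 to 17.6 FPKM, and it and Ndrg1 did not pass in any pair.

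Further genes of these pathways, from lists chosen by function, also had no call under G-1. Of all genes tested, 10.1% had an unadjusted p under 0.05 under G-1 in limma, and limma-voom called 1.54%. Of 38 further genes of glucose use 29 were tested, and limma called 0 under G-1 (2 at an unadjusted p under 0.05, 0 in limma-voom), with 9 higher and 6 lower, 12 higher and 7 lower and 11 higher and 7 lower in 6419c5 against 2838c3, 6499c4 against 2838c3 and 6499c4 against 6419c5. These were 51.7, 65.5 and 62.1% of the 29, against 51.5, 55.6 and 45% of all genes. Eno3, the muscle enolase gene, was at 53.4 and 50.9 FPKM in 2838c3, 121 and 97.2 FPKM in 6419c5 and 53.9 and 44.6 FPKM in 6499c4, 1.04 (SE 0.08, adjusted p = 8.93e-05) in 6419c5 against 2838c3. Among Eno1, Eno1b, Eno2 and Eno3 it had the highest listed level. Gpd1, which turns a glycolytic intermediate into glycerol phosphate, was at 0.462 and 0.842 FPKM in 2838c3, 0.452 and 0.396 FPKM in 6419c5 and 10.98 and 12.9 FPKM in 6499c4. It passed the level filter only through 6499c4, so its difference is given as levels alone. Of 15 genes of oxygen sensing 14 were tested, with 0 called under G-1 (2 unadjusted, 0 in limma-voom), and 7 higher and 2 lower, 2 higher and 5 lower and 1 higher and 5 lower in the pairs of lines (64.3, 50 and 42.9% called). Arnt, the partner of both HIF and the aryl hydrocarbon receptor, was at 14.3 and 14.4 FPKM in 2838c3, 19.5 and 21.3 FPKM in 6419c5 and 12.1 and 11.6 FPKM in 6499c4, 0.03 (SE 0.08, adjusted p = 0.929) under G-1 and -0.73 (SE 0.10, adjusted p = 8.80e-04) in 6499c4 against 6419c5. Arnt2, its relative, stood above 1 FPKM in 6419c5 alone, at 0.115 and 0.0386 FPKM in 2838c3, 6.55 and 5.60 FPKM in 6419c5 and 0 and 0 FPKM in 6499c4. Hif3a was at 0 in every library. Egln2 was higher under G-1 in each line (levels above). Its log2 average was 0.31 (SE 0.07, adjusted p = 0.300) in limma, with an adjusted p of 0.0842 in limma-voom. Of the 14 tested genes of oxygen sensing, 2 were higher under G-1 in all 3 lines and 2 were lower. Egln2, Eno3, Arnt and Hif3a were chosen after their values were seen, for their bearing on Eno1 and on HIF.

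Of 36 other hypoxia-inducible genes 29 were tested, with 0 called under G-1 (3 unadjusted, 0 in limma-voom), and 7 higher and 6 lower, 9 higher and 12 lower and 10 higher and 13 lower in the pairs of lines. These were 44.8, 72.4 and 79.3% of the 29, against the same 51.5, 55.6 and 45% of all genes. Trf, the transferrin gene, was at 32.2 and 34.6 FPKM in 2838c3, 107 and 104 FPKM in 6419c5 and 0.328 and 0.535 FPKM in 6499c4, under 1 FPKM in 6499c4 alone. Stc2, a secreted stanniocalcin, was at 1.43 and 2.55 FPKM in 2838c3, 28.9 and 34.5 FPKM in 6419c5 and 54.6 and 61.5 FPKM in 6499c4, 4.33 (SE 0.12, adjusted p = 4.73e-07) in 6499c4 against 2838c3. The median log2 difference under G-1 was 0.03, -0.02 and 0.04 for the 3 lists, beside -0.01 over all genes. Ddit4, a stress gene that restrains growth signalling, was higher under G-1 in each line at 7.91 and 12.4 FPKM in 2838c3, 2.33 and 4.80 FPKM in 6419c5 and 11.9 and 15.8 FPKM in 6499c4 with a log2 average of 0.59 (SE 0.11, adjusted p = 0.238) in limma and an adjusted p of 0.0632 in limma-voom, and was chosen after its values were seen.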

How the data were processed

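The deposited values are FPKM made by the authors, 1 column per library. The table's own name states the unit. The submitters' processing notes list STAR and DESeq2 without saying what each did, with build, annotation and counting rule not given in the sources used here. The members and lists were chosen with earlier results of these data known. Whole reads were recovered from the equal steps of FPKM within a gene, within 0.01 reads for all 15712 genes above 0. A count of 0 allows up to 3 reads, or 0.337 to 0.550 RPM, for counting error only.

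The 10748 genes whose mean reached 1 FPKM were fitted as log2(FPKM + 1) in limma 3.58.1 (R 4.3.3) with line and treatment as terms and a variance trend (2 residual and 5.35 prior degrees of freedom), two-sided, with Benjamini-Hochberg adjustment and a threshold of 0.05. Fold changes on this scale are understated for low genes. Nothing says that libraries of a line came from separate cultures, so p-values measure only the spread between these libraries. Lines pair the libraries, being the same line, and after centring within treatment the 2 libraries of a line correlated across genes at 0.906, 0.871 and 0.882. The code was tested on simulated data, where the fit recovered most of the genes given a 2-fold or 4-fold difference. Recovery of smaller differences, such as the members' means of -0.21 to 0.37 log2 units under G-1, was not tested. The share of false calls was larger than the threshold allows, so calls near it are less sure. Reads were recovered exactly for most but not all genes. Read ratios used the library scale of the FPKM values, with exact 95% binomial intervals. Full values were given for members past the threshold in any comparison, the 6 with the same direction under G-1 in every line and the largest smallest difference, and Hif1a, and for context lists up to 4 called genes by size of difference, of which 1 to 2 are given, and some items are not reported here. Alternatives were the pseudocount, the level filter, TMM and quantile scaling, limma-voom on recovered reads, no variance trend, no block, and leaving out lines or libraries.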

Additional observations from a re-analysis of the deposited data

Results flagged for a closer look

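Gapdh and Pkm had read ratios of G-1 to vehicle on opposite sides of 1 in different lines, with 95% counting intervals that did not hold 1. For Gapdh the ratio was 1.032 in 2838c3 against 0.968 in 6419c5 and 0.9645 in 6499c4. For Pkm it was 1.05 in 2838c3 and 1.032 in 6419c5 against 0.9799 in 6499c4. The difference between lines was not tested, for lack of replicates within a line. Both genes have deep counts and share much of their sequence with copies elsewhere (82.5% and 34.4% of words).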

How the results depend on the processing

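Under every alternative run G-1 called 0 of the members, without the replicate block of lines (0) and with limma-voom (0) included, while over all genes it called 3 in the reported fit, 165 with limma-voom, 6 with a filter of 5 FPKM, 1 with a pseudocount of 0.1 and 0 without the filter, the trend or the block, and 0 to 28 with a line left out. Leaving out 1 library gave 11 to 18 members called between 6419c5 and 2838c3 (18 reported), 16 to 18 between 6499c4 and 2838c3 (20 reported) and 9 to 15 between 6499c4 and 6419c5 (15 reported), and over all genes as few as 3557 (5533 reported), 4597 (5973) and 2664 (4836). Such fits have 1 residual degree of freedom. Without treatment as the replicate block the line comparisons called 16, 18 and 14 members, which ended among others the calls of Hk2 and Hif1a between 6499c4 and 2838c3 (adjusted p = 0.171 and 0.0866). Other scalings, filters, pseudocounts, variance or block settings ended 11 calls, 5 between 6419c5 and 2838c3 (Pfkfb3, Aldoa, Aldoc, Gapdh, Pgk1), 4 between 6499c4 and 2838c3 (Hk2, Aldoc, Pdk1, Hif1a) and 2 between 6499c4 and 6419c5 (Hk1, Gpi1), at adjusted p of 0.0508 to 0.173. Of 53 calls of members between lines 34 held in every alternative that tested them and 19 were lost in at least 1. The 53 include the calls of Aldoc and Bnip3 against 2838c3, given above as levels alone. Among the 34 is that of Bnip3 between 6499c4 and 2838c3. Over 853 alternative values of single members, 0 changed direction. Some of these are values of the 6 genes under G-1, which did not pass in the reported fit and so could not fall out of the threshold. Of the remaining values, those of calls between lines, 93 fell out. Depth limits Bnip3, Car9, Aldoc, Eno2, Ankrd37 and Slc16a3, each at most 51 reads in a library.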
